A study of Mus musculus with 4 samples.

Results

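Expression of 6 genes that lie near Adam9 on mouse chromosome 8 was followed in skin fibroblasts with and without ADAM9. They were Tm2d2, Plekha2, Tacc1, Golga7, Tcim and Adam5, listed with earlier results of these data known. Some genes that lie as close to Adam9, such as Adam32 and Htra4, were not listed. The 6 genes were read through every probe set whose annotation named 1 of them and no other gene. The array held 18 such probe sets among 45037 non-control probe sets, and the 6 genes were among 18204 genes named. The cells were primary dermal fibroblasts from mice at postnatal day 1, either adam9 -/- (knockout, n = 2 isolations) or adam9 +/+ (wild type, n = 2 isolations). Both genotypes were plated at the same cell number, grown for 48 h and left untreated, and each isolation gave 1 array. The sources used here give neither the strain of the mice, nor the design of the targeted allele, nor the number of animals per isolation. The p-values therefore measure the spread between isolations, which may be partly technical.

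ADAM9 is a membrane-anchored metalloprotease that cleaves other proteins at the cell surface. A gene is usually disrupted in embryonic stem cells, and the chromosome segment around the targeted site comes from those cells and is inherited with the allele. Genes next to a targeted gene are for this reason commonly examined in knockout animals, as is any effect of the altered locus on their transcription. The question addressed here was which neighbours of Adam9 differed between the genotypes, and whether the probe sets of one gene agreed. The arrays measured RNA and not DNA, so the origin of the flanking segment was not tested.

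The neighbours have unrelated functions. Tm2d2 encodes a small membrane protein of the TM2 domain family. Plekha2 encodes TAPP2, an adaptor that binds the lipid phosphatidylinositol 3,4-bisphosphate at the plasma membrane through a PH domain. Tacc1 encodes a coiled-coil protein of the centrosome and spindle. Golga7 encodes a Golgi protein that partners the palmitoyltransferase DHHC9. Tcim encodes a small regulator that promotes Wnt/beta-catenin signalling by binding Chibby. Adam5 belongs to the ADAM genes expressed in the testis. In the order of RefSeq genes of assembly GRCm38.p6, counting only genes with a probe set, Tm2d2 was the gene next to Adam9 on one side, Plekha2 was 3 places away and Tacc1 was 5 places away. On the other side, Adam5 was 2 places, Tcim 7 places and Golga7 10 places from Adam9.

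Adam9 gave less signal in the knockout than in the wild type, but its knockout signal stayed above the array medians (4.83 to 4.87). Its 1 probe set had log2 values of 8.33 and 8.55 in knockout isolations 1 and 2 and of 11.58 and 11.70 in wild-type isolations 1 and 2. It fell by 3.20 log2 units, or 9.16-fold (moderated SE 0.14, limma adjusted p = 0.0239). The call was lost when isolation number entered as a block (adjusted p = 0.26), and with any 1 array left out (adjusted p = 0.216 to 0.452). The position of the probe set relative to the altered part of the gene is unknown here, and a probe set outside that part might not check the labels.

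The arrays differed in more than genotype. Array medians were 4.83 to 4.87, and over all probe sets the arrays correlated with Pearson's r of 0.982 to 0.991, a correlation across probe sets that are not independent replicates. All 10 fibroblast markers, such as Col1a1 and Dcn, were bright, with lowest values of 11.88 on the knockout arrays and 10.13 on the others. They were not equal between arrays, and 3 of the 10 did not overlap between the genotypes (against 41.7% of all genes). Lum read 12.81 and 12.775 in the knockout against 12.385 and 10.13 in wild-type isolations 1 and 2. Pdgfra read 12.30 and 12.31 against 11.93 and 10.35, and Fbln2 was lower in the knockout (-0.39). Xist stood at 10.38 and 10.40 in the knockout and at 4.29 and 4.32 in the wild type. The Y-linked Eif2s3y, Kdm5d and Uty were high in the wild-type arrays alone. Genotype and sex, as read from these genes, therefore cannot be told apart in any comparison below, for sex-linked or other genes. The 9 measured cell cycle genes of 10 listed were all higher in the knockout, with medians of 8.47 and 9.03 against 6.81 and 6.59. The 12 macrophage and leukocyte markers had a median of 9.13 in wild-type isolation 1 and of 3.93, 4.26 and 4.47 in the other arrays. The 7 pericyte and smooth muscle markers did not overlap between the genotypes, as did 41.7% of all genes. Of the 7, 6 were lower in the knockout, and the medians of the 7 were 7.17 and 6.48 against 7.69 and 7.56. Abcc9 was higher in the knockout, at 7.49 and 6.48 against 5.49 and 3.45. The bright Acta2 differed by only -0.13. Among these markers Myh11, the smooth muscle myosin heavy chain, read 6.55 and 5.48 against 8.71 and 9.57, highest in wild-type isolation 2 and lowest in knockout isolation 2.

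Among the neighbours, Plekha2, Tm2d2 and Tcim stood lower in the knockout with every one of their probe sets, Tacc1 and Golga7 differed little, and the Adam5 values overlapped. No member probe set passed the limma test over all probe sets (0 of 18, against 0.0311% of all probe sets called), and 9 had an unadjusted limma p under 0.05, all of them lower in the knockout (against 4.61% of all probe sets lower at that level). The knockout and wild-type values did not overlap for 16 of the 18, against 39.5% of all probe sets. Of these, 13 were lower in the knockout (against 20% of all) and 3 were higher (against 19.5%), or 2 under 3 other normalizations in which Golga7 overlapped. The 8 probe sets of Tm2d2 make up much of that count, and probe sets of one gene read the same transcript in the same RNA and are not replicates. The members were listed with earlier results of these data known, so the shares over all probe sets are a description and not an independent comparison. Of the 7 pericyte and smooth muscle markers, 6 stood lower in the same arrays and Abcc9 stood higher by 2.51 (median difference of the 7, -0.51). The part of such cells in the lower Plekha2, Tm2d2 and Tcim values was not tested. In such bulk cultures, fewer cells that express a gene and less RNA per cell cannot be told apart.

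**Figure D1:**
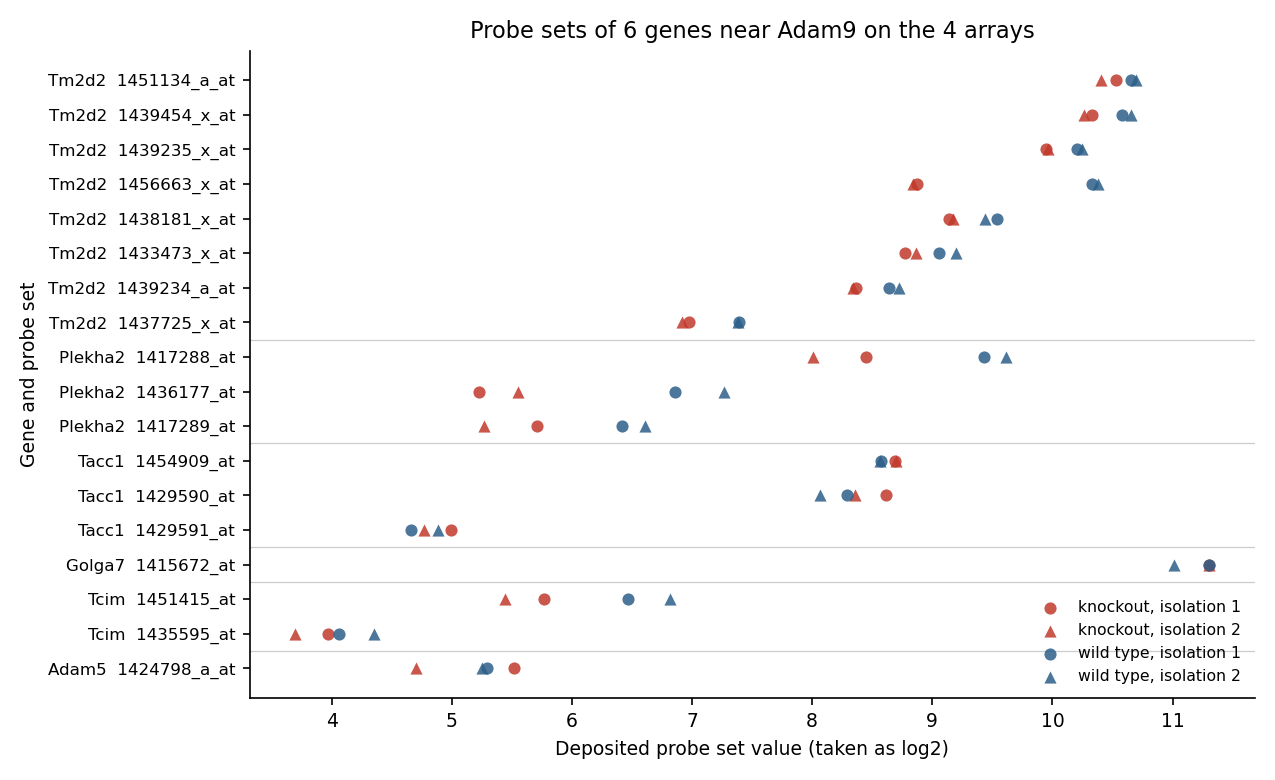
Deposited values, taken as log2, of each member probe set on the 4 arrays; red marks knockout and blue wild type, circles isolation 1 and triangles isolation 2. Every red point lies left of every blue point for the 8 probe sets of Tm2d2, the 3 of Plekha2 and the 2 of Tcim.

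Plekha2 had the largest differences by gene. The probe set 1417288_at stood at 8.45 and 8.003 in knockout isolations 1 and 2 and at 9.43 and 9.61 in wild-type isolations 1 and 2. Both knockout values were below both wild-type values, with a gap of 0.98, and the genotype difference of -1.30 (moderated SE 0.19) was a 2.46-fold lower value in the knockout. The probe set 1436177_at read 5.23 and 5.55 in the knockout against 6.86 and 7.27 in the wild type, a difference of -1.68 (SE 0.20) or 3.20-fold. The probe set 1417289_at read 5.71 and 5.27 against 6.41 and 6.61, a difference of -1.02 (SE 0.19) or 2.03-fold. All 3 placed the knockout at least 2-fold lower without overlap, as did 0.986% of all probe sets. The adjusted limma p-values were 0.211, 0.151 and 0.305, so none passed over all probe sets, and over the alternatives they lay between 0.116 and 0.942.

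The 3 Plekha2 probe sets agreed on the genotypes and less on the isolations. Knockout isolation 1 was above isolation 2 by 0.45 and 0.44 log2 units with 1417288_at and 1417289_at, but below it by 0.32 with 1436177_at. Wild-type isolation 2 was the highest array with each of them. Of 2366 genes with 3 probe sets, 7 (0.296%) had every probe set at least 2-fold lower in the knockout without overlap, and 131 (5.54%) had every probe set lower without overlap. Plekha2 is one of those 7 genes. All 3 of its probe sets had means above the 40th percentile. Counting only probe sets above that percentile, these shares were 0.446% and 8.93% of 1568 genes. The spread between the Plekha2 probe sets, from the lowest to the highest difference, was 0.66 log2 units. The median for genes with 3 probe sets was 0.25.

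The Plekha2 values can be set beside the leukocyte markers, which were high in wild-type isolation 1. Plekha2 was lower in that array than in wild-type isolation 2 with all 3 probe sets, by 0.19, 0.41 and 0.20 log2 units. Without wild-type isolation 1 the differences were -1.39 (1417288_at), -1.88 (1436177_at) and -1.12 (1417289_at), each larger in size than with all arrays. The part of leukocytes in the Plekha2 values was not tested.

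**Figure D2:**
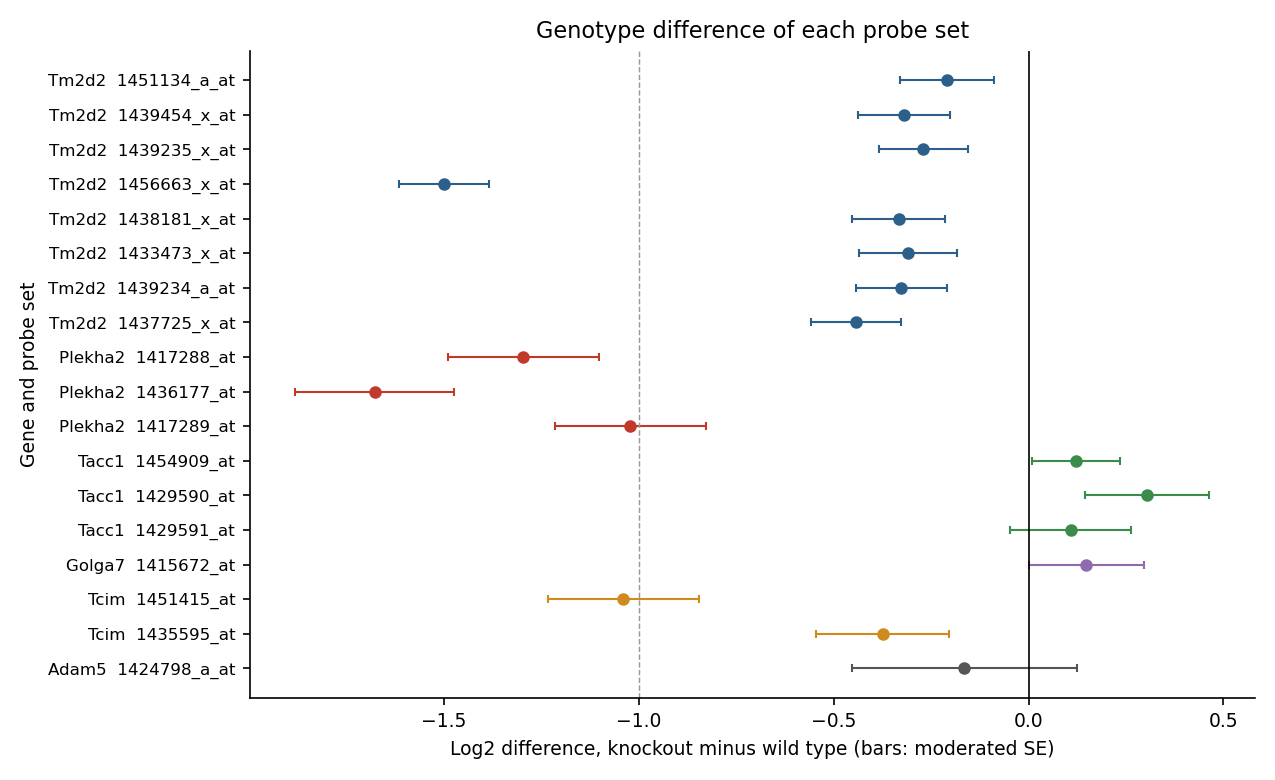
Log2 difference, knockout minus wild type, of each member probe set, with the moderated standard error of the limma fit as bars and a dashed line at a 2-fold lower value. The 3 Plekha2 probe sets lie between -1.68 and -1.02, and 7 of the 8 Tm2d2 probe sets lie between -0.44 and -0.21 while 1 lies at -1.50.

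Tm2d2, the gene next to Adam9, was measured by 8 probe sets, and each of them stood lower in both knockout arrays than in both wild-type arrays. The probe set with the highest mean, 1451134_a_at, read 10.53 and 10.41 in the knockout and 10.66 and 10.70 in the wild type. Its difference of -0.21 (SE 0.12) was a 1.16-fold lower value. The gap between the genotypes was 0.13, about the size of the 0.12 between the knockout isolations.

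Most of the other Tm2d2 probe sets gave similar small differences. The probe set 1439454_x_at read 10.33 and 10.27 in the knockout against 10.58 and 10.65 in the wild type, a difference of -0.32. The probe set 1439235_x_at read 9.95 and 9.96 against 10.21 and 10.24, a difference of -0.27. The probe set 1438181_x_at read 9.14 and 9.17 against 9.54 and 9.44, a difference of -0.33. In these 3 the isolations of a genotype lay within 0.10 log2 units of each other, closer than the genotypes did.

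The dimmer Tm2d2 probe sets ran the same way. The probe set 1433473_x_at read 8.77 and 8.86 in the knockout against 9.06 and 9.20 in the wild type, a difference of -0.31. The probe set 1439234_a_at read 8.37 and 8.34 against 8.64 and 8.72, a difference of -0.33. The probe set 1437725_x_at read 6.98 and 6.91 against 7.39 and 7.38, a difference of -0.44, or 1.36-fold. These 7 probe sets had a median difference of -0.32, and their adjusted limma p-values were 0.419 to 0.668.

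One Tm2d2 probe set, singled out after its values were seen, stood apart. The probe set 1456663_x_at read 8.87 and 8.84 in the knockout and 10.33 and 10.38 in the wild type. Its difference of -1.50 (SE 0.11) was a 2.83-fold lower value, and its isolations lay within 0.05 log2 units of each other in each genotype. The adjusted limma p was 0.0800, and 0.0606 to 0.544 over the alternatives. Relative to the mean of the other 7 Tm2d2 probe sets on the same array, it was lower by 0.28 and 0.29 in the knockout arrays (offsets of -0.28 and -0.29) and higher by 0.89 and 0.90 in the wild-type arrays. The change was thus unequal between probe sets of this gene. The suffix _x_at marks probe sets with probes that can match other transcripts too, and 6 of the 8 carry it, including 5 with small differences.

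The agreement of sign over 8 probe sets can be set beside other genes. Of 52 genes with 8 or more probe sets, 12 had all of them on one side of 0 and 9 had all of them lower in the knockout. In 1 of the 52 (1.92%), Tm2d2 itself, every probe set was lower without overlap. All 8 Tm2d2 probe sets had means above the 40th percentile, and the 52 genes include dimmer probe sets. Counting only probe sets above that percentile left 14 genes with 8 or more. Of these 14, 6 had all on one side of 0, 5 had all lower and 1 (7.14%) had all lower without overlap. The spread between the Tm2d2 probe sets was 1.29 log2 units, and 1456663_x_at set its lower end. The median spread was 0.55 for the 52 genes and 0.42 for the 14.

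**Figure D3:**
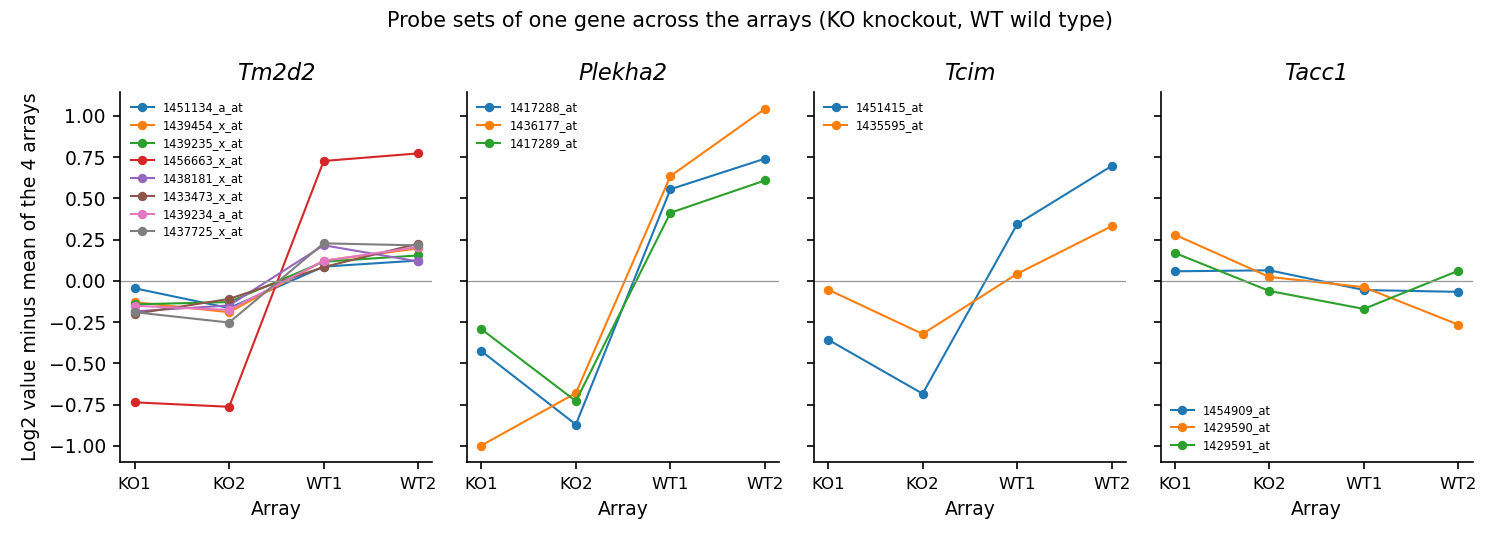
Each line is 1 probe set, drawn as its log2 value on an array minus its mean over the 4 arrays; lines only join the values of one probe set. The Tm2d2 probe sets run close together except 1456663_x_at, and the Plekha2 probe sets separate the genotypes but order the knockout isolations differently.

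Tcim stood lower in the knockout with both of its probe sets. The probe set 1451415_at read 5.77 and 5.44 in the knockout and 6.47 and 6.82 in the wild type. Its difference of -1.04 (SE 0.19) was a 2.06-fold lower value that did not pass (limma adjusted p = 0.298, and 0.226 to 0.942 over the alternatives). The probe set 1435595_at read 3.97 and 3.70 against 4.06 and 4.35, a difference of -0.37 (SE 0.17, adjusted p = 0.608). The latter was the 1 member probe set whose mean over the arrays fell under the 40th percentile, and its genotypes were 0.096 apart, less than its isolations were. Without knockout isolation 2 its difference was -0.24 and without wild-type isolation 2 it was -0.23.

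Both Tcim probe sets ordered the arrays alike, with wild-type isolation 2 highest, then wild-type isolation 1, knockout isolation 1 and knockout isolation 2. The same order was seen with 2 of the 3 Plekha2 probe sets and 4 of the 8 of Tm2d2, and with 6.61% of all probe sets. Of 4696 genes with 2 probe sets, both were lower in the knockout without overlap in 423 (9.01%).

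Tacc1 differed little. The probe set 1454909_at read 8.69 and 8.70 in the knockout and 8.58 and 8.57 in the wild type, a difference of 0.12 (95% interval of the limma fit -0.17 to 0.42, adjusted p = 0.787). The probe set 1429590_at read 8.61 and 8.35 against 8.29 and 8.07, a difference of 0.30 (95% interval -0.11 to 0.72). The probe set 1429591_at read 4.997 and 4.77 against 4.66 and 4.89, with overlapping genotypes and a difference of 0.11 (95% interval -0.30 to 0.52). All 3 differences were positive. Among genes with 3 probe sets, 49.4% had all 3 on one side of 0. The share was 60.8% when only probe sets with means above the 40th percentile were counted, as all 3 of Tacc1 were. A 2-fold change in either direction lay outside each interval. For 1429590_at the difference was 0.18 without knockout isolation 1 and 0.19 without wild-type isolation 2. For 1429591_at it was close to 0 without knockout isolation 1 (-0.0067) or wild-type isolation 1 (-0.0072).

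Golga7 and Adam5 had 1 probe set each, so agreement could not be examined. Golga7 (1415672_at) read 11.300 and 11.304 in the knockout arrays and 11.300 and 11.008 in the wild-type arrays. The genotypes were separated by 0.00025 log2 units, and they overlapped when the arrays were median-centred, quantile-normalized again or normalized by cyclic loess. The difference was 0.15 (95% interval -0.24 to 0.54, limma adjusted p = 0.803), and leaving out wild-type isolation 2 gave 0.0023 and leaving out wild-type isolation 1 gave 0.29. Adam5 (1424798_a_at) read 5.52 and 4.70 in the knockout and 5.30 and 5.25 in the wild type. The knockout isolations lay on either side of both wild-type arrays, 0.81 log2 units apart, and the difference of -0.16 (95% interval -0.92 to 0.59) became 0.24 without knockout isolation 2 and -0.57 without knockout isolation 1.

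The wider neighbourhood was described by the 20 measured genes on each side of Adam9, with the brightest probe set of each. None of these 40 genes passed the limma test (against 0.0494% of all genes by their brightest probe set), and 6 had an unadjusted limma p under 0.05 (against 10.8% of all genes). Knockout and wild-type values were separate for 23 of the 40, against 41.7% of all genes and 46.1% of the 891 other genes of chromosome 8. Their median difference was -0.060 log2 units, with 23 lower and 17 higher, against a median of 0.0025 over all genes. Without the 6 members, 4 of 34 genes had an unadjusted limma p under 0.05, and 2 of these were lower in the knockout. Knockout and wild-type values were separate for 18 of the 34, and the median difference was -0.041.

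**Figure D4:**
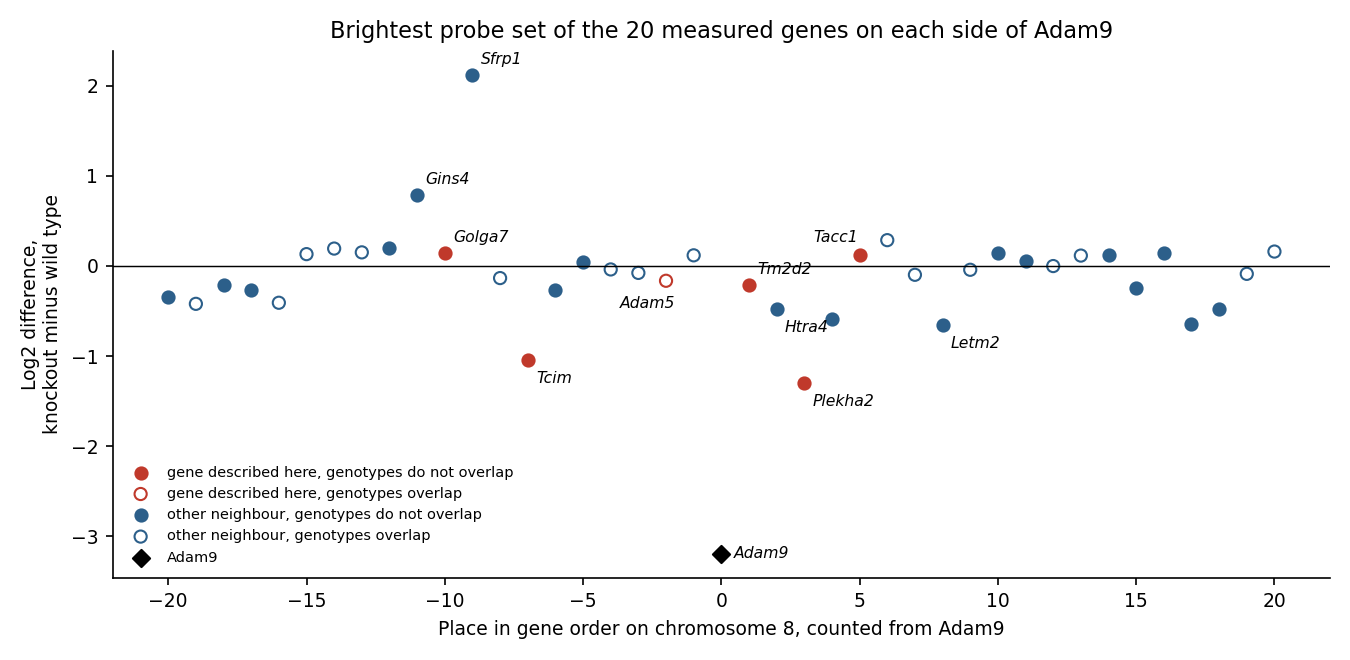
Log2 difference, knockout minus wild type, of the brightest probe set of each gene against its place in the gene order on chromosome 8, with Adam9 at 0; filled points have genotypes that do not overlap. Adam9 lies at -3.20, Plekha2 at -1.30 and Tcim at -1.04, Sfrp1 lies at 2.12, and every other gene lies between -0.66 and 0.79; Golga7 is filled by a gap of 0.00025 that 3 other normalizations closed.

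Most genes lying between the members were measured at low values. Between Adam9 and Adam5, Adam32 had a difference of 0.12 with overlapping genotypes, at values of 2.92 to 3.40. Between Tm2d2 and Plekha2, the serine protease gene Htra4 read 3.89 and 3.01 in the knockout and 3.95 and 3.91 in the wild type, a difference of -0.48. Both were below the 40th percentile. Ido2, Ido1, Adam18 and Adam3, which lie between Tcim and Adam5, had differences of -0.27, 0.04, -0.04 and -0.08 and were also below it.

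Of the genes without overlap, the largest differences on the Adam5 side were those of Sfrp1 and Tcim, and on the Tm2d2 side those of Plekha2 and Letm2. Sfrp1, which encodes a secreted Wnt antagonist, read 9.53 and 9.45 in the knockout and 8.40 and 6.34 in the wild type. Its difference of 2.12 did not pass (limma adjusted p = 0.500), and the wild-type isolations were themselves 2.06 log2 units apart. Letm2, related to a mitochondrial inner membrane protein, had a difference of -0.66 (adjusted p = 0.565).

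The relatives and partners of the neighbours were listed by function, and none of their genes passed the limma test. Of the TACC family and its mitotic partners (5 genes, median 0.19), the mitotic kinase Aurka differed by 2.10 (adjusted p = 0.0800) and Tacc3 by 1.67 (adjusted p = 0.0918), where Tacc1 differed by 0.12. Both belong to the mitotic genes, and the cell cycle markers above were higher in the same arrays; their part in this was not tested. Of the TM2D family, Tm2d1 differed by -0.26 and Tm2d3 by 0.28. For Plekha2, its relatives and partners and the proteins around its lipid ligand were listed (7 of 8 measured, median -0.047). Ptpn13 differed by 0.51 and Mpdz by 0.35. Plekha1, the closest relative, differed by -0.047 with overlapping genotypes.

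The medians of the remaining lists lay near that of all genes, though single genes could differ more. For Golga7, 6 of 8 Ras palmitoylation and golgin genes were measured, with a median of -0.081, led by Nras (-0.38) and Golga3 (-0.15). All 6 were lower in the knockout (against 49.4% of all genes), and 1 did not overlap between the genotypes (against 41.7%). For Tcim, the 8 genes of the Wnt pathway had a median of 0.0022. The largest differences were those of the Wnt target Axin2 (0.19) and the antagonist Dkk1 (-0.13), and Dkk1 was below the 40th percentile. For Adam5, the 9 sperm and testis ADAM genes had a median of 0.036, led by Adam6b (0.32) and Adam32 (0.12), and 1 of them was above the 40th percentile. The 7 broadly expressed ADAM genes had a median of 0.0018, with 3 lower and 4 higher in the knockout. Of the 7, 5 did not overlap between the genotypes (against 41.7% of all genes). At least 2-fold differences without overlap were seen for 2 of the 7 (against 3.35%). Among these Adam12 differed by 1.05, and Adam8, a leukocyte ADAM, differed by -1.66 with a value of 8.03 in wild-type isolation 1 against 5.05 to 5.66 elsewhere.

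Profiles over 4 arrays are shared by many genes. For each member, the brightest probe set was compared with 13272 genes above the 40th percentile by the Euclidean distance between log2 profiles centred on their means. The nearest to Plekha2 were Gm2115 (distance 0.086) and Mamdc2 (0.092), and the nearest to Tcim were H2ac19 (0.046) and B230311B06Rik (0.073). Tm2d2 was nearest to Pde4dip (0.010) and Krit1 (0.017), Tacc1 to Lrrc3 (0.0039) and Rpl35 (0.012), Golga7 to C2cd2 (0.016) and Klhdc3 (0.022), and Adam5 to Prrg2 (0.029) and B3galt4 (0.044). Between 364 and 710 genes had a Pearson's r over 0.95 with a member, so a like profile over 4 arrays was common.

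**Figure D5:**
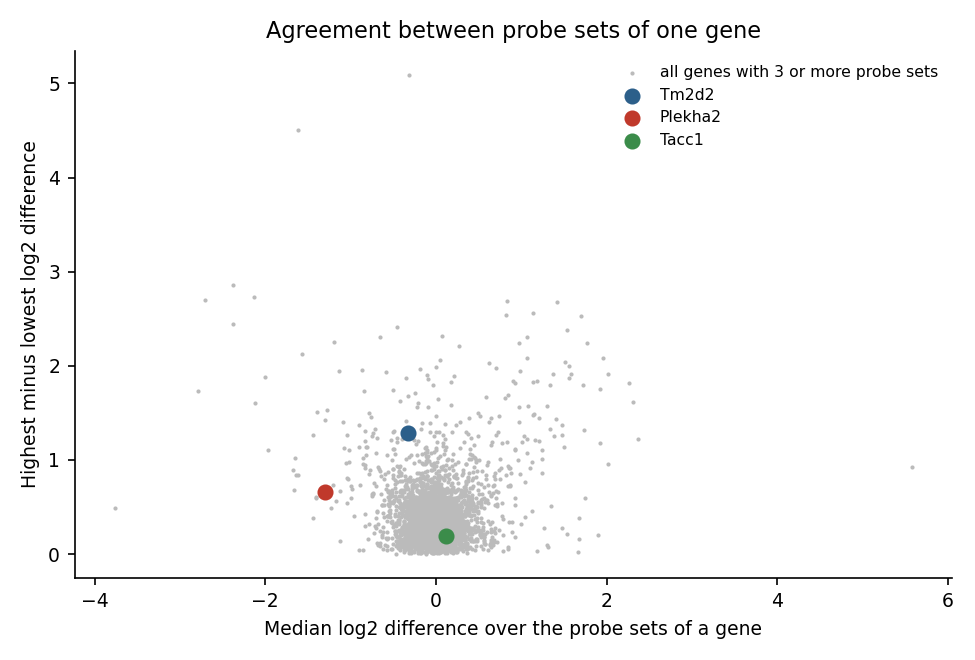
Each point is a gene with 3 or more probe sets; the horizontal axis gives the median log2 difference over its probe sets and the vertical axis the highest minus the lowest difference. Plekha2 lies at a median of -1.30 with a range of 0.66, Tm2d2 at -0.32 with 1.29, and Tacc1 at 0.12 with 0.20.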

How the data were processed

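The probe set values were made with Affymetrix Expression Console, per the submitters' processing notes, and neither algorithm, version nor log base is stated there. The values the authors deposited ran from 1.70 to 14.37 and were taken as log2; with another base the folds would change. Of 45101 probe sets, 64 were controls. Gene names came from the platform annotation, updated by Entrez identifier through RefSeq (GRCm38.p6), used only for names and gene order. Limma 3.58.1 in R 4.3.3 (lmFit, eBayes, no block) compared the genotypes over all 45037 non-control probe sets, with Benjamini-Hochberg adjustment over all of them; the fit had 2 residual and 2.72 prior degrees of freedom. It was tested on simulated data. A probe set was called at an adjusted p under 0.05. The number of arrays limits the precision, and no detection calls were used. Named were all members, per side the 2 neighbours with the largest difference without overlap, the 2 largest per list, and the 2 nearest profiles; genes between members, some other list members and 1 Tm2d2 probe set were chosen after their values were seen. Members and lists were chosen with earlier results of these data known.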

Additional observations from a re-analysis of the deposited data

How the results depend on the processing

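In none of the alternatives did a member probe set pass the limma test. These were other filters, normalizations, variance models and sets of probe sets, the block, and each array left out. With the isolation number as a replicate block, Adam9 differed by -3.20 and did not pass (adjusted p = 0.26), and 0 probe sets were called in all, against 14 without it. The isolation deviations of the genotypes correlated at r = 0.051 over all probe sets, and no label says that the numbers pair the isolations. With 1 array left out, a lone array is assumed to vary like the others, 0 probe sets were called, and Adam9 differed by -3.31 to -3.08. Adam5 reversed to 0.24 without knockout isolation 2; with all other arrays left out in turn it lay at -0.57 to -0.14. The calls over all probe sets were 22 with median centring, 20 with cyclic loess and 9 above the 60th percentile, and 7 genes were called with means over probe sets. The number of members without overlap was 5 of 6 genes with the brightest probe set above the 40th percentile (44.97% over all genes so tested), 5 of 6 with means over probe sets (41.7%), and 10 of 12 without _x_at and _s_at probe sets (38.9%), where fewer features were counted. The directions of Tm2d2, Plekha2, Tcim, Tacc1 and Golga7, by the brightest probe set or, in 1 alternative, the mean over probe sets, held in all 16 alternatives. The block, filters, variance models and sets of probe sets kept the same difference for a given probe set, so its direction could not change there. Only the normalizations, the mean over probe sets and the arrays left out could move it. Golga7 fell to 0.0023 without wild-type isolation 2. The direction of the dim Tacc1 probe set 1429591_at did not hold in all alternatives. The number of arrays limits what could be called.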

Other observations

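Several neighbours outside the named set had values without overlap, and they were picked after their values were seen. Gins4, which encodes a subunit of the GINS complex of the replication fork and lies next to Golga7, read 9.08 and 9.36 in the knockout and 8.44 and 8.42 in the wild type, a difference of 0.79 that did not pass (limma adjusted p = 0.297). The cell cycle markers were higher in the same arrays. The long noncoding RNA 5830408C22Rik, listed between Plekha2 and Tacc1, read 3.65 and 3.58 against 4.09 and 4.32, a difference of -0.59 (adjusted p = 0.382). It was below the 40th percentile.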
